A study of Mus musculus with 35 samples.

Results

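Collagen V and the chains it shares fibrils with were followed in the RNA of mouse skin wounds. The 8 genes are Col5a1, Col5a2 and Col5a3, which encode the chains of collagen V, Col11a1 and Col11a2, which encode chains of the closely related collagen XI, and Col1a1, Col1a2 and Col3a1, which encode collagens I and III. They were taken by name, whatever their values, as 8 of the 22830 gene symbols in each of the count tables. In the first table a symbol is represented by its RefSeq transcript with most counts, and each of the 8 genes had a single transcript there.

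Collagens I and III are the bulk of the fibrils in skin, and collagen V is a minor chain type that is built into them and helps to start and space them. Most collagen V molecules hold pro-alpha1(V) chains, the product of Col5a1, together with a pro-alpha2(V) chain from Col5a2, and Col5a2 chains cannot form a stable molecule alone. Col5a3 adds a further chain that assembles with the others. Collagen XI does the same work in cartilage, and its alpha1 chain can assemble with collagen V chains in other tissues. Loss of collagen V in people causes classic Ehlers-Danlos syndrome, in which skin is fragile and wounds heal slowly. The question put to the data was whether Col5a2, Col5a3 or the collagen XI genes rise to a level that makes up for Col5a1, in absolute terms and relative to the fibrils' main chains.

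In all animals both Col5a1 alleles were floxed (Col5a1 fl/fl), and all received tamoxifen around the time of wounding. Col5a1CKO animals carried in addition the Col1a2CreERT transgene, a tamoxifen-inducible Cre under a collagen I enhancer, and their littermates without Cre are called WT. The mice were young adults of both sexes on a C57BL/6 background. A full-thickness piece of back skin was removed, and the middle of the wound was taken for RNA. The 8 groups were WT at day 14 (7 wounds), Col5a1CKO at day 14 (7), Col5a1CKO injected with cultured WT skin fibroblasts, at day 14 (3), WT at day 19 (3), Col5a1CKO at day 19 (3), and, in a separate count table, WT given vehicle (4), Col5a1CKO given vehicle (4) and Col5a1CKO given cilengitide (4), an inhibitor of alpha-v integrins. The labels place the vehicle wounds at day 14 and give no day for the cilengitide wounds, which the paper also places at day 14. The paper describes its day 14 WT and Col5a1CKO groups of 7 as given vehicle, with PBS as the control for fibroblasts. Elsewhere it gives day 14 groups of 4 without naming vehicle. The titles of the first table's wounds do not say which received PBS. Below, vehicle wounds are those of the separate count table. Replicates are lettered a to g or numbered 1 to 4, as in the labels where these give a letter.

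The model limits what the counts can show. Cre is active in cells that use the Col1a2 enhancer, so every other cell of the wound keeps its Col5a1 gene, and the sources used here do not state which exons are deleted. Reads from the rest of the gene are still counted, so a remaining Col5a1 count is not a measure of intact chain. The wounds are mixed tissue: fewer cells of a type and less RNA per cell cannot be told apart.

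Each library held 15043531 to 35700337 counts in the first table (23 libraries) and 51211600 to 68266760 in the second (12 libraries). Libraries of the first table fell into 2 sets when counts of genes rich and poor in GC were compared within each library (log2 scale), since the values left a gap of 1.54 where the next widest was 0.39. The lower set held WT a to d and Col5a1CKO a to e at day 14, and all other libraries of that table were in the upper set, so day 14 results are also given within each set. Transcripts of the 8 genes differ in GC content, which is 58.0% for Col5a1 and 49.6% for Col5a2. Y chromosome genes were read in 5 of 7 WT and 4 of 7 Col5a1CKO wounds at day 14, in 0 of 3 wounds with fibroblasts, in 1 of 3 WT and 0 of 3 Col5a1CKO wounds at day 19, and in the upper set of day 14 in the 3 WT wounds alone. Sex and genotype cannot be told apart there. The treatment label of the Col5a1CKO wounds at day 19 names WT fibroblasts and their titles do not, and the titles were followed. A gene is called changed where the adjusted p of edgeR's quasi-likelihood test over all genes was under 0.05 and the fold change at least 2. Levels are RPKM, reads divided by transcript length and by library total, so that genes of different length can be compared. The total is scaled by the trimmed mean of M values (TMM). Where groups are said not to overlap in level, the share of all genes that did so was not computed. Such a separation is therefore a description and not a result about the gene.

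On NCBIM37/mm9, Col5a1 spans chr2:27741945-27895034 on the plus strand, Col5a3 chr9:20574494-20619511 on the minus strand, Col11a1 chr3:113733458-113923636 on the plus strand, and Col11a2 chr17:34176382-34203630 on the plus strand. Col1a1 spans chr11:94797538-94814356 and Col1a2 chr6:4454814-4491543, both on the plus strand. Col3a1, at chr1:45368383-45406551 on the plus strand, lies close to Col5a2, at chr1:45431166-45560127 on the minus strand. None of the members shared a stretch of 50 bases, the length of the reads, with another gene. Col5a1 exons overlap those of antisense transcripts over 99 and 113 bases and Col1a1 exons over 109, and the library kit keeps strand.

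Promoters are shown because the genes other than Col5a1, which is the deleted gene, moved together in some comparisons. Whether promoter sequence has a part in any of the changes was not tested. RefSeq promoter sequence on GRCm38.p6 was at hand for 6 of the 8 genes, as the 250 bases before the start of the gene. The letters searched for were CCAAT on both strands (ATTGG where it lies on the other strand), the box bound by the factor NF-Y that is long known from collagen I promoters. It is in capitals, and each sequence reads 5′ to 3′ on the strand of its gene. The positions on GRCm38.p6 are chr2:27886175-27886424 (plus) for Col5a1, chr9:20815068-20815317 (minus) for Col5a3, chr3:114030290-114030539 (plus) for Col11a1 and chr6:4505368-4505617 (plus) for Col1a2.
Col5a1: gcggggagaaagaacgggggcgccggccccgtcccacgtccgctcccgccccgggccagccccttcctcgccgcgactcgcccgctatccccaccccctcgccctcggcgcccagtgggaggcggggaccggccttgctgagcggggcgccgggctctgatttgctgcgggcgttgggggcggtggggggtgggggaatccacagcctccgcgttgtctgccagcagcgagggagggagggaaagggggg
Col5a3: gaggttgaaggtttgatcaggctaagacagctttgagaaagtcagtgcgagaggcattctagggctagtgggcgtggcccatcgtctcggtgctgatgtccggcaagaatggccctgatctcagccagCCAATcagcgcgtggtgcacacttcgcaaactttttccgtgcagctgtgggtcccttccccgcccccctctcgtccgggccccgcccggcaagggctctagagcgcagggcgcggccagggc
Col11a1: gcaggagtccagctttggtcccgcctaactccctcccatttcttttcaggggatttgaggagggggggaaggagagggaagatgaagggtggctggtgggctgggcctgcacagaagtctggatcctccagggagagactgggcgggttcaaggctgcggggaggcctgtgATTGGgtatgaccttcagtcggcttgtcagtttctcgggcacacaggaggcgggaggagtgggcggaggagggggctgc
Col1a2: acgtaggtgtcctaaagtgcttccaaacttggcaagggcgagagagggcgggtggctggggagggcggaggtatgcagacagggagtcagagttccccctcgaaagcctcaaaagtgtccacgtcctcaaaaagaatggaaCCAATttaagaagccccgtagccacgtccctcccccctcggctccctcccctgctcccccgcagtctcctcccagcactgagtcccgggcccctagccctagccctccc
The box was found in Col5a3, Col11a1 and Col1a2 and in 33.8% of 32851 promoters of the same length. Col5a1, Col11a2 and Col3a1 did not hold these letters in this window. The Col5a1 promoter had a GC content of 76.4%, the Col3a1 promoter 35.2%, and the median promoter 52.4%.

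Col5a1, the deleted gene, was read in every wound. At day 14 its level was between 41.1 and 286 RPKM in WT wounds (median 101, n = 7) and between 20.4 and 79.4 in Col5a1CKO wounds (median 43.9, n = 7). The groups overlapped, because WT e to g, at 45.0 RPKM and below, lay among the Col5a1CKO wounds. The log2 fold change was -1.43 (SE 0.49, 95% interval -2.48 to -0.38), and Col5a1 was not called in the edgeR test (adjusted p = 0.0756), where 8.28% of 14367 genes were. DESeq2 gave -1.42 with an adjusted p of 0.0253. In the lower set of libraries, WT wounds had 101 to 286 RPKM and Col5a1CKO wounds 20.4 to 79.4, without overlap (log2 fold change -1.87, edgeR adjusted p = 0.0273). In that set 955 of 14472 genes were called. In the upper set the levels were closer, with 41.1 to 45.0 RPKM in 3 WT wounds against 41.8 and 27.3 in 2 Col5a1CKO wounds (log2 fold change -0.23, edgeR adjusted p = 0.524).

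The other WT to Col5a1CKO comparisons went the same way for Col5a1 without passing the test. At day 19 the WT wounds had 306, 61.2 and 644 RPKM and the Col5a1CKO wounds 130, 104 and 73.1. WT b was below every Col5a1CKO wound. This gave a log2 fold change of -1.69 (SE 0.87, 95% interval -3.82 to 0.43, edgeR adjusted p = 0.272), in a comparison where 0.0198% of genes were called. With vehicle, Col5a1 was at 313, 302, 55.5 and 53.5 RPKM in WT and 157, 68.7, 73.2 and 30.5 in Col5a1CKO wounds. WT 3 and 4 lay within the Col5a1CKO range. Between them the log2 fold change was -1.17 (SE 0.76, 95% interval -2.94 to 0.60, edgeR adjusted p = 0.232), where 30.9% of genes were called.

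Col5a2, the partner chain of Col5a1 in the common collagen V molecule, had no log2 fold change below 0 in the genotype comparisons. At day 14 it was between 37.6 and 607 RPKM in WT (median 300, n = 7) and between 179 and 1110 in Col5a1CKO wounds (median 852, n = 7), and the groups overlapped. This was a log2 fold change of 1.26 (SE 0.69, edgeR adjusted p = 0.247). In the upper set of libraries, WT e to g had 43.1, 42.9 and 37.6 RPKM and Col5a1CKO f and g 356 and 179. The log2 fold change of 2.80 was called there (edgeR adjusted p = 0.037), as were 1411 of 15296 genes. With library set as a term the difference over all 14 wounds was 1.54, called as well (edgeR adjusted p = 0.0078). With that term 1857 of 14367 genes were called.

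Col5a2 at day 19 was at 272, 51.5 and 583 RPKM in WT and at 1100, 1080 and 769 in Col5a1CKO wounds, so that every Col5a1CKO wound was above every WT wound. This log2 fold change, 1.73 (SE 0.91), was not called (edgeR adjusted p = 0.279). With vehicle the levels were 324, 294, 60.3 and 45.9 RPKM in WT and 1040, 945, 566 and 283 in Col5a1CKO wounds. The groups overlapped only through Col5a1CKO 4, at 283, below WT 1 and 2. The log2 fold change was 1.93 (SE 0.78, edgeR adjusted p = 0.0724), and without Col5a1CKO 4 it was 2.24 and called. DESeq2 called it over all 8 wounds (1.97, adjusted p = 0.0122).

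Col5a3, the third collagen V chain, rose in Col5a1CKO wounds at day 14. It was between 16.8 and 58.0 RPKM in WT (median 44.9, n = 7) and between 64.3 and 248 in Col5a1CKO wounds (median 162, n = 7), and the groups did not overlap. The log2 fold change was 1.77 (SE 0.33, 95% interval 1.07 to 2.48), called by edgeR (adjusted p = 0.00691) and still called with any 1 of the 14 wounds left out. In the upper set alone the levels were 44.9, 37.5 and 16.8 RPKM in WT against 139 and 80.3 in Col5a1CKO wounds, and the log2 fold change of 1.83 was not called (edgeR adjusted p = 0.0776).

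Vehicle wounds gave a second rise of Col5a3. WT wounds had 49.9, 61.9, 43.3 and 25.1 RPKM and Col5a1CKO wounds 265, 212, 191 and 108, again without overlap. Here the log2 fold change was 2.07 (SE 0.39, 95% interval 1.17 to 2.96, edgeR adjusted p = 0.00412), and it was called without any 1 of the 8 wounds. At day 19 Col5a3 was at 131, 32.6 and 225 RPKM in WT and 351, 355 and 203 in Col5a1CKO wounds. WT c lay above Col5a1CKO c there, and the log2 fold change of 1.26 (SE 0.75) was not called (edgeR adjusted p = 0.322).

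**Figure D1:**
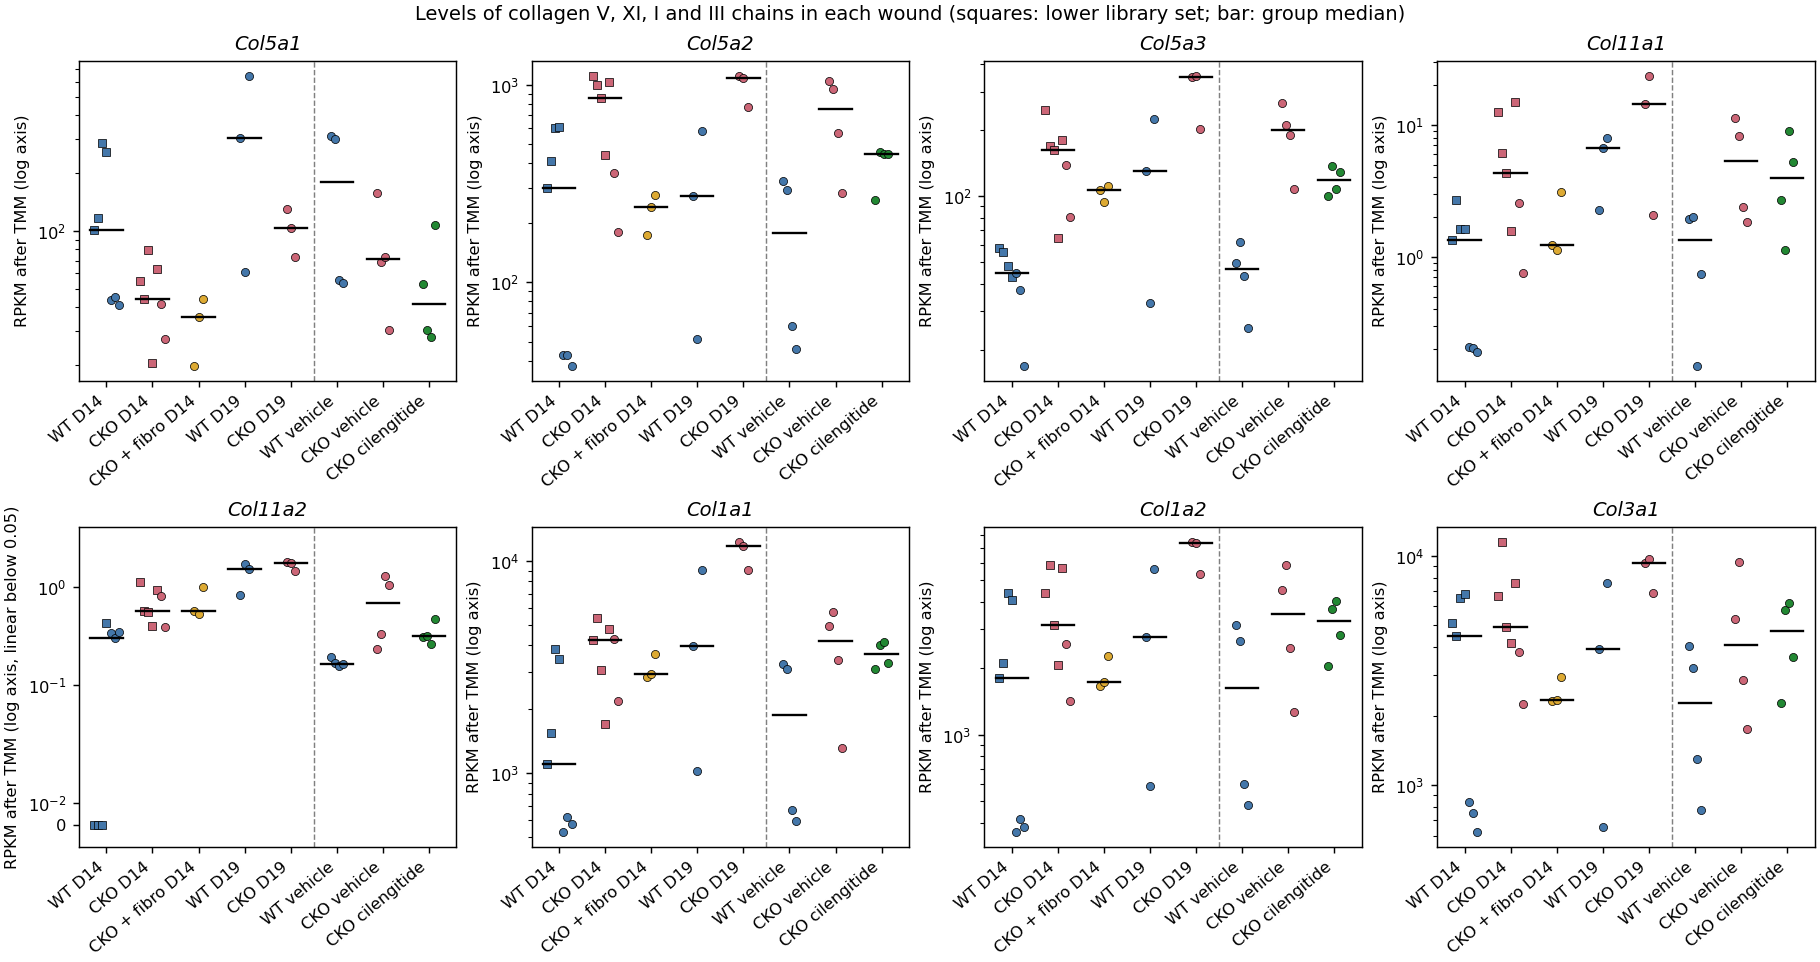
Level of each of the 8 collagen chain genes in each wound, in RPKM after TMM on a log axis (Col11a2 linear below 0.05), by group. Points are wounds, squares mark the lower set of libraries, bars the group medians, and the dashed line parts the count tables. Col5a3 in Col5a1CKO wounds at day 14 (64.3 to 248 RPKM) sits above WT (16.8 to 58.0), whereas Col5a1 overlaps.

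Collagen XI genes stayed at low levels in all groups. Col11a1 was between 0.191 and 2.69 RPKM in WT (median 1.35, n = 7) and between 0.758 and 14.8 in Col5a1CKO wounds at day 14 (median 4.31, n = 7). The groups overlapped through Col5a1CKO d, f and g. The log2 fold change was 2.40 (SE 0.76, 95% interval 0.78 to 4.03, edgeR adjusted p = 0.0564). It was called without WT b (2.79), without Col5a1CKO d (2.57) and without Col5a1CKO g (2.60). DESeq2 called it too (2.44, adjusted p = 0.00611), with 2095 of 14367 genes. So did edgeR within the upper set (3.14, edgeR adjusted p = 0.0425), where 1411 of 15296 genes were called.

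With vehicle, Col11a1 was at 1.95, 2.0, 0.148 and 0.745 RPKM in WT and 11.2, 8.17, 2.38 and 1.83 in Col5a1CKO wounds. Col5a1CKO 4 was below WT 1 and 2. The difference of 2.25 on the log2 scale (SE 0.89) was not called (edgeR adjusted p = 0.0689), and was called without Col5a1CKO 4 (2.59) and by DESeq2 (2.29, adjusted p = 0.013). Levels at day 19 were 2.25, 6.65 and 7.98 RPKM in WT and 14.3, 23.6 and 2.06 in Col5a1CKO wounds, with Col5a1CKO c lowest of the 6 (log2 fold change 1.32, SE 0.89, edgeR adjusted p = 0.376).

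Col11a2 was lower still, at most 1.77 RPKM in any wound. WT a, b and c at day 14 had 0 counts, which allows a level of up to 0.0356 RPKM, and WT d to g had 38, 42, 50 and 48 counts. The Col5a1CKO wounds had 0.393 to 1.12 RPKM (median 0.567, n = 7), and the log2 fold change of 1.77 (SE 0.98) was not called (edgeR adjusted p = 0.26). With vehicle it was at 0.194, 0.168, 0.157 and 0.163 RPKM in WT and 0.235, 0.334, 1.27 and 1.04 in Col5a1CKO wounds, without overlap. That rise of 2.03 on the log2 scale (SE 0.55) was called by edgeR (adjusted p = 0.0188), but not without WT 3 (1.98) or WT 4 (1.99). At day 19 the WT wounds had 0.816, 1.68 and 1.52 RPKM and the Col5a1CKO wounds 1.77, 1.74 and 1.44, and the groups overlapped. Markers of cartilage cells, where collagen XI is a main component, added to at most 16 CPM (counts scaled to library total) in any wound of the first table. In vehicle wounds 1 of the 3 cartilage markers that could be tested was called higher in Col5a1CKO, where 30.9% of all genes were called. The sums of the cartilage markers were 0.0899 to 0.693 CPM in WT and 1.49 to 4.96 in Col5a1CKO wounds. Their part in the Col11a2 rise was not tested.

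The main fibril chains, Col1a1, Col1a2 and Col3a1, had far higher RPKM levels than the collagen XI genes and were not called in any genotype comparison. Col1a1 at day 14 was between 527 and 3840 RPKM in WT (median 1110, n = 7) and between 1700 and 5390 in Col5a1CKO wounds (median 4220, n = 7), a log2 fold change of 1.13 (SE 0.54, 95% interval -0.01 to 2.27, edgeR adjusted p = 0.186). Col1a2, the second chain of collagen I, had 0.88 (edgeR adjusted p = 0.388). Col3a1, the single chain of collagen III, had 0.68 (edgeR adjusted p = 0.512). Its levels were 620 to 6830 RPKM in WT and 2250 to 11500 in Col5a1CKO wounds. In the upper set of libraries Col1a1 was at 527, 624 and 577 RPKM in WT against 4280 and 2190 in Col5a1CKO wounds (log2 fold change 2.59). Of 11 other settings, 1 called Col1a1 at day 14 (edgeR adjusted p = 0.0376).

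At day 19 every Col5a1CKO wound, with 12300, 11800 and 9100 RPKM of Col1a1, was above the WT wounds with 3970, 1030 and 9060. The difference of 1.27 on the log2 scale was not called (edgeR adjusted p = 0.447). Vehicle wounds had 3260, 3090, 672 and 595 RPKM of Col1a1 in WT and 4950, 5720, 3420 and 1310 in Col5a1CKO, overlapping through Col5a1CKO 4 (log2 fold change 0.98, edgeR adjusted p = 0.342). Col1a2 and Col3a1 had log2 fold changes of 1.19 and 1.11 at day 19 and of 1.0 and 1.01 with vehicle. Of the 8 genes, 1 was called at day 14 (Col5a3), 0 at day 19 and 2 with vehicle (Col5a3 and Col11a2), all of them higher. Over all genes 8.28%, 0.0198% and 30.9% were called, so these counts are near the background and are not a result about the collagen chains as a group. A positive log2 fold change was seen for 7 of the 8 in each genotype comparison, with medians of 1.19 at day 14, 1.23 at day 19 and 1.47 with vehicle, where the medians of all genes were -0.03, -0.01 and 0.02. Col5a1 was the exception each time.

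**Figure D2:**
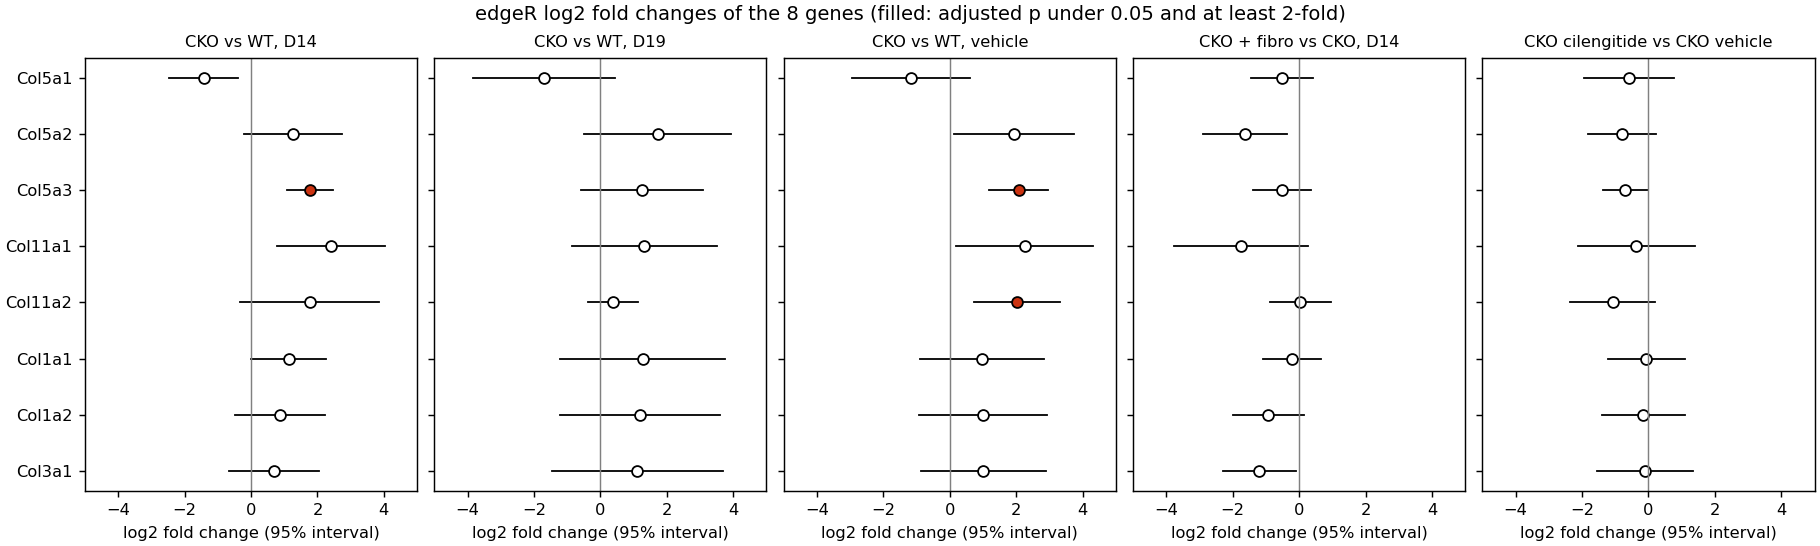
Log2 fold change of each of the 8 genes in each comparison, with 95% intervals from edgeR. In the genotype comparisons Col5a1 lies below 0 (-1.43 at day 14) and the other 7 genes above it (Col5a3 1.77 at day 14).

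Because wounds of a group differed several-fold in collagen I, Col5a1 was next set against Col1a1 within each wound. In WT wounds this ratio was nearly constant. At day 14 there were 9.14, 7.44, 7.44, 7.48, 8.28, 7.21 and 7.12 units of Col5a1 RPKM per 100 of Col1a1 in WT a to g, an SD of 0.13 on the log2 scale. Col5a1CKO a to g had 1.3, 0.813, 2.60, 1.20, 1.33, 0.976 and 1.25. No Col5a1CKO wound came near the WT range, and this held in both sets of libraries (7.44 to 9.14 against 0.813 to 2.60 in the lower, 7.12 to 8.28 against 0.976 and 1.25 in the upper). The medians were 7.44 and 1.25, a 5.97-fold difference.

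The ratio was lower by 2.60 on the log2 scale in an exact 2-sided permutation test (p = 0.000583, the lowest possible with 7 wounds a group, adjusted p = 0.0348 over all genes). By that test and at least 2-fold, 24.8% of 14366 genes differed relative to Col1a1. A separation without overlap was rarer, in 0.975% of genes. In the edgeR test with the Col1a1 count in place of library size, Col5a1 was called lower (log2 fold change -2.51, SE 0.44, adjusted p = 0.0131), but so were most genes: 61.1% were called, with a median over all genes of -1.76. The call for Col5a1 is therefore near the background of that test, and it was lost in the lower set alone (-2.44, edgeR adjusted p = 0.0694).

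Day 19 and vehicle wounds showed the same separation of Col5a1 from Col1a1. At day 19 the ratio per 100 of Col1a1 was 7.70, 5.93 and 7.11 in WT and 1.05, 0.878 and 0.803 in Col5a1CKO wounds, although WT b had the least Col5a1 of all 6. The difference was -2.93 on the log2 scale (exact permutation p = 0.1, the lowest possible with 3 wounds a group), with groups that did not overlap, as in 44.2% of genes. The edgeR test relative to Col1a1 gave an adjusted p of 0.0511, where 31.9% of genes were called. With vehicle the ratios were 9.59, 9.79, 8.26 and 9.0 in WT and 3.18, 1.20, 2.14 and 2.33 in Col5a1CKO wounds, a difference of -2.13 (exact permutation p = 0.0286, the lowest possible with 4 wounds a group, adjusted p = 0.236). Groups did not overlap in 12.1% of genes, and by edgeR relative to Col1a1, where 16.6% were called, Col5a1 had an adjusted p of 0.167.

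Relative to Col3a1 the picture for Col5a1 was alike but wider. Per 100 of Col3a1 there were 2.00 to 6.63 units of Col5a1 in WT and 0.382 to 1.62 in Col5a1CKO wounds at day 14, which did not overlap, as in 0.801% of genes. The difference of -2.28 on the log2 scale had an exact permutation p of 0.000583, and an adjusted p of 0.0728 where 0% of genes were called and 3459 had an unadjusted p under 0.05. By edgeR relative to Col3a1, 0% were called at day 14, with 7998 genes at an unadjusted p under 0.05, and Col5a1 had an adjusted p of 0.0581 (log2 fold change -2.24). That test called it with Col5a1CKO g left out (-2.31) or any of WT a to d (-2.36 to -2.24), and in the upper set (-2.35). At day 19 the ranges were 7.81 to 9.41 and 1.06 to 1.40 (edgeR adjusted p = 0.0994, 5.61% of genes called), with a call without WT b (-2.79) or WT c (-2.87), and with vehicle 4.28 to 9.34 and 0.731 to 2.97 (edgeR adjusted p = 0.209, 16.9% of genes called).

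Against its partner Col5a2, Col5a1 was also lower in every genotype comparison, as a description. Per 100 units of Col5a2, WT a to d had 33.8, 28.2, 47.4 and 42.6 units of Col5a1, and WT e to g 101, 105 and 109. Col5a1CKO a to e had 4.95, 4.37, 9.32, 4.64 and 6.13, and f and g 11.7 and 15.2. The ratio differed between the sets of libraries as well as between the genotypes, and within each set the genotypes did not overlap. At day 19 it was 110 to 119 in WT and 9.51 to 11.8 in Col5a1CKO, and with vehicle 92.1 to 117 and 7.28 to 15.1.

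The ratio of Col5a2 to the main fibril chains depended on the chain it was set against and on the comparison. Relative to Col1a1 at day 14 the genotypes did not differ beyond the spread. Per 100 of Col1a1 there were 27.0, 26.4, 15.7 and 17.6 units in WT a to d, 8.17, 6.88 and 6.52 in WT e to g, 26.3, 18.6, 27.9, 25.9 and 21.7 in Col5a1CKO a to e, and 8.31 and 8.18 in Col5a1CKO f and g. Values followed the set of libraries, and the genotypes differed by 0.41 on the log2 scale (exact permutation p = 0.336), with 0.34 (95% interval -0.82 to 1.49) in the edgeR test relative to Col1a1. With vehicle the ratio was 9.92, 9.53, 8.97 and 7.72 in WT and 21.1, 16.5, 16.6 and 21.7 in Col5a1CKO wounds, without overlap, as in 12.1% of genes (1.06 on the log2 scale, exact permutation p = 0.0286, the smallest possible, adjusted p = 0.236). At day 19 it was 6.84, 4.99 and 6.43 against 8.93, 9.09 and 8.44, also without overlap, as in 44.2% of genes (0.55, exact permutation p = 0.1, the smallest possible, adjusted p = 0.226).

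Relative to Col3a1, Col5a2 was at 5.13 to 9.24 units per 100 in WT (median 6.07, n = 7) and 7.96 to 17.4 in Col5a1CKO wounds at day 14 (median 10.6, n = 7). The groups overlapped, and the difference of 0.73 on the log2 scale did not pass the adjustment over all genes (exact permutation p = 0.00932, adjusted p = 0.1). At day 19 the ratio was 6.94, 7.92 and 7.69 in WT and 11.9, 11.1 and 11.1 in Col5a1CKO wounds, without overlap, as in 32.1% of genes (0.60, exact permutation p = 0.1, the smallest possible). Vehicle wounds had 8.0, 9.09, 4.65 and 5.91 in WT and 19.7, 10, 19.8 and 16.1 in Col5a1CKO, without overlap, as in 13.5% of genes (1.25, exact permutation p = 0.0286, the smallest possible, adjusted p = 0.211). All 3 differences were upwards. By edgeR relative to Col3a1 they were 0.75, 0.60 and 1.25, with adjusted p of 0.232, 0.686 and 0.39.

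Col5a3, the gene whose level rose, passed no test relative to Col1a1 or Col3a1. At day 14 there were 1.24 to 8.53 units per 100 of Col1a1 in WT (median 3.61) and 3.14 to 5.87 in Col5a1CKO wounds (median 3.78), and the log2 difference was 0.28 (exact permutation p = 0.508). The edgeR test relative to Col1a1 gave 0.00 (95% interval -1.03 to 1.04), so that a rise or fall of about 2-fold beside Col1a1 cannot be told from none. Ratios at day 19 were 3.28, 3.16 and 2.48 in WT against 2.84, 3.0 and 2.23, and with vehicle 1.53, 2.01, 6.45 and 4.23 against 5.35, 3.71, 5.60 and 8.26, with overlap in both (exact permutation p = 0.5 and p = 0.2). Per 100 of Col3a1 there were 0.626 to 5.35 units of Col5a3 in WT (median 1.25) and 1.48 to 3.70 in Col5a1CKO wounds (median 3.31) at day 14. The medians differed 2.65-fold and the groups overlapped (log2 difference 0.60, exact permutation p = 0.272). In the lower set WT wounds had 0.626 to 1.25 and Col5a1CKO wounds 1.48 to 3.70, without overlap, whereas in the upper set WT e to g had 5.35, 4.97 and 2.71 and Col5a1CKO f and g 3.69 and 3.57. With vehicle there were 1.23, 1.91, 3.35 and 3.24 units in WT and 5.0, 2.25, 6.68 and 6.15 in Col5a1CKO wounds, with medians 2.16-fold apart, and the overlap came through Col5a1CKO 2 (1.04, exact permutation p = 0.0857). Day 19 wounds had 3.33, 5.01 and 2.97 in WT and 3.79, 3.66 and 2.95 in Col5a1CKO (-0.09, exact permutation p = 0.8).

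Relative to Col1a1, Col11a1 differed by 1.03 on the log2 scale at day 14 and by 1.22 with vehicle, neither past the test (exact permutation p = 0.0991 and p = 0.0571). Relative to Col3a1 the day 14 difference was 1.36 (exact permutation p = 0.00641, adjusted p = 0.0923), and the edgeR test called it without Col5a1CKO g (1.75) or any of WT a to d (1.55 to 1.85). In no wound did Col11a1 reach 1 unit per 100 of Col1a1, and the highest value, 0.644, was in WT b at day 19.

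**Figure D3:**
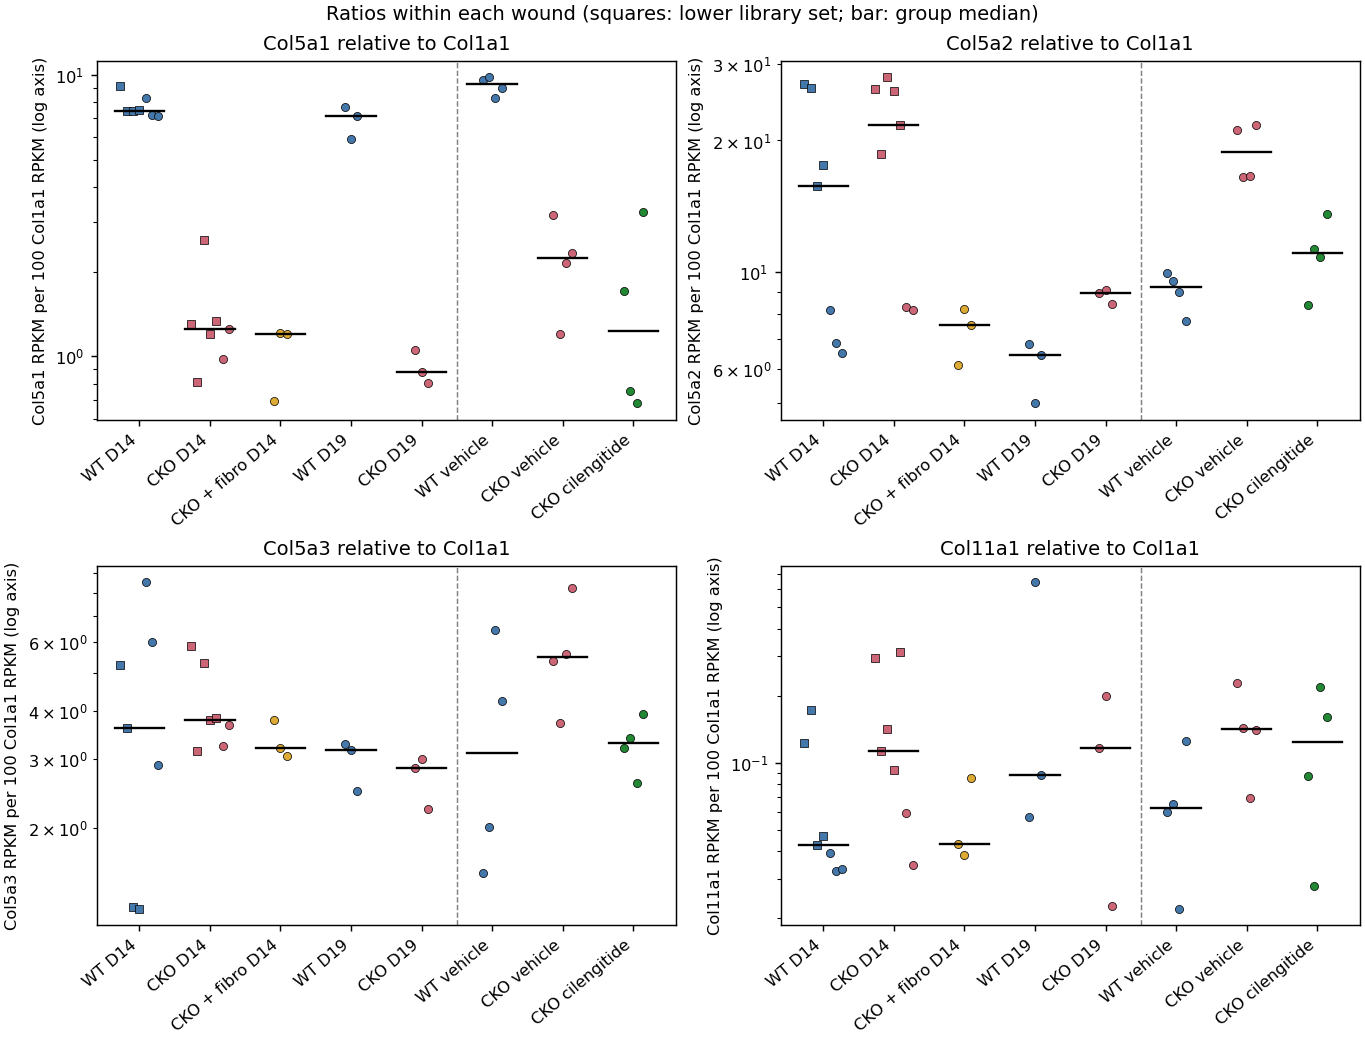
Units of Col5a1, Col5a2, Col5a3 and Col11a1 RPKM per 100 of Col1a1 in each wound, on log axes, by group. Points are wounds, squares the lower set of libraries, bars group medians. Col5a1 is parted between WT (7.12 to 9.14 at day 14) and Col5a1CKO wounds (0.813 to 2.60), and Col5a2 follows the set of libraries at day 14.

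To ask whether the other chains filled the gap, Col5a1, Col5a3, Col11a1 and Col11a2 were summed as RPKM in each wound. Col5a2 is not part of the sum, so the sum does not answer for it. Remaining Col5a1 reads are counted, although they are not a measure of intact chain. These sums are descriptions and were not tested. The sum was 58.4 to 336 RPKM in WT and 86.7 to 316 in Col5a1CKO wounds at day 14 (medians 161 and 220). Medians at day 19 were 440 and 484, and with vehicle 232 and 279. As a level the 4 chains together overlapped between genotypes throughout.

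Relative to Col1a1 the sum was lower in Col5a1CKO wounds. Per 100 of Col1a1 it was 8.73 to 16.9 in WT and 4.08 to 8.06 in Col5a1CKO at day 14, and 9.69 to 11.1 against 3.07 to 4.09 at day 19. With vehicle it was 11.2 to 14.8 against 5.06 to 10.8. None of these ranges overlapped, nor did those of 0.975% of single genes at day 14, 44.2% at day 19 and 12.1% with vehicle. Most genes were lower relative to Col1a1: the median gene differed by -1.76, -2.34 and -1.32 on the log2 scale in the edgeR tests relative to Col1a1. The medians of the sum were 2.20-, 2.46- and 1.52-fold lower, which is less than the median gene in each comparison. Col1a2 and Col3a1 kept closer to Col1a1, with log2 differences relative to it of -0.07 and -0.32 at day 14. They were -0.05 and -0.05 at day 19 and 0.03 and -0.18 with vehicle. The sum thus fell by less than the median gene, while these main fibril chains moved less than the sum. Relative to Col3a1 the ranges overlapped at day 14 (medians 5.14 and 4.73) and with vehicle (9.63 and 8.11), but not at day 19 (11.6 and 5.0).

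The make-up of the sum turned from Col5a1 to Col5a3. Col5a1 was 48.9 to 85.2% of it in WT and 17.4 to 32.2% in Col5a1CKO wounds at day 14, and the median share of Col5a3 went from 32.1 to 74.2%. At day 19 the Col5a3 median went from 29.7 to 72.6%, and with vehicle from 24.3 to 72.3%. Col11a1 had a median share of 0.486% in WT and 1.82% in Col5a1CKO wounds at day 14 and never more than 6.51%. Col11a2 was at most 1.65%. The 4 shares add to 100%, so the loss of Col5a1 raises the share of Col5a3 by itself. Per 100 of Col1a1 the median of Col5a3 was 3.61 in WT and 3.78 in Col5a1CKO wounds at day 14. It was 3.16 and 2.84 at day 19, and 3.12 and 5.47 with vehicle.

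**Figure D4:**
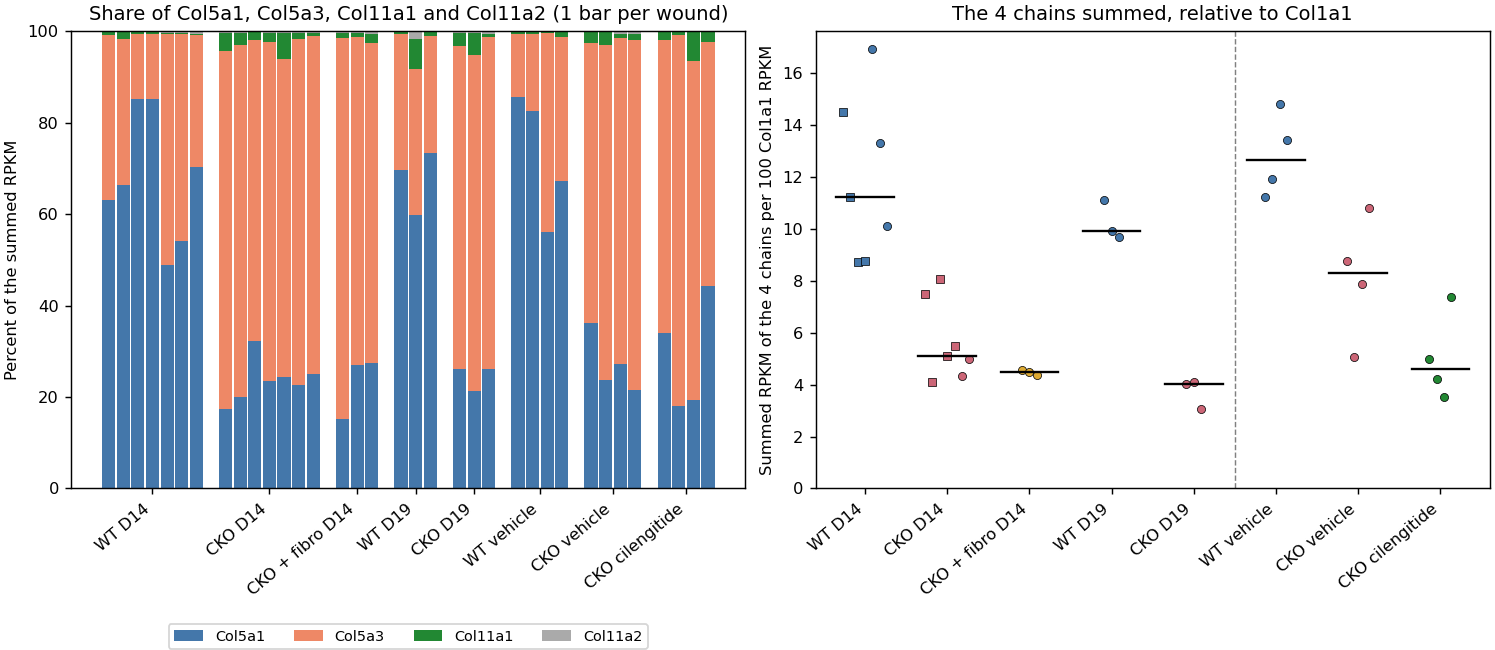
Left, percent of the summed RPKM of Col5a1, Col5a3, Col11a1 and Col11a2 taken by each gene, 1 bar per wound. Right, the sum per 100 units of Col1a1 RPKM in each wound, with group medians as bars. Col5a3 takes most of the sum in Col5a1CKO wounds (median 74.2% at day 14), and the sum per 100 of Col1a1 is lower there (4.08 to 8.06 against 8.73 to 16.9), by less than the median gene was. The loss of Col5a1 raises the Col5a3 share by itself.

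The injected fibroblasts came from skin of WT animals, without the deletion. The injected Col5a1CKO wounds were compared with the other Col5a1CKO wounds of day 14. Col5a1 was at 19.7, 35.4 and 43.9 RPKM in the 3 injected wounds, within the range of the 7 others (20.4 to 79.4) but for the first. Col5a1 had a log2 fold change of -0.52 (SE 0.42, 95% interval -1.45 to 0.41, edgeR adjusted p = 0.571). Per 100 of Col1a1 the injected wounds had 0.695, 1.21 and 1.20 units of Col5a1, a difference of -0.34 (exact permutation p = 0.358). Relative to Col3a1 the difference went the other way, at 0.57 (exact permutation p = 0.283, adjusted p = 0.371). The level of Col5a1 thus did not differ beyond the spread of the wounds. Its interval reaches up to 0.41 on the log2 scale, but the groups also differ in library set, as given below, so it sets no limit on a rise.

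In that comparison 0% of 15659 genes were called by edgeR, with 2001 at an unadjusted p under 0.05, and DESeq2 called 19. The share called by edgeR was also 0% relative to Col1a1 (529 genes at an unadjusted p under 0.05) and relative to Col3a1 (1068 genes). Col5a2 was at 174, 240 and 277 RPKM (log2 fold change -1.63, SE 0.57, edgeR adjusted p = 0.365) and Col3a1 at 2320, 2350 and 2950 (-1.20, edgeR adjusted p = 0.375). Both were near the low end of the other Col5a1CKO wounds. Per 100 of Col1a1, Col5a2 was lower by 1.28 (exact permutation p = 0.0333, adjusted p = 0.75). Col3a1 was lower by 0.91 and did not overlap (exact permutation p = 0.0333, adjusted p = 0.75), as for 0.894% of genes. Relative to Col3a1, Col5a2 differed by -0.37 (exact permutation p = 0.258). All 3 injected wounds were in the upper set of libraries, and 5 of the 7 others in the lower. Beside Col5a1CKO f and g alone, with 8.31 and 8.18 units of Col5a2 per 100 of Col1a1, the injected wounds had 6.13, 8.23 and 7.57.

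Against WT wounds of day 14, where 5.84% of genes were called, Col5a3 was the member called in the injected wounds. Its levels of 107, 93.8 and 112 RPKM were above every WT wound (log2 fold change 1.40, SE 0.33, edgeR adjusted p = 0.03). The call was lost without WT d (1.39) and without any 1 of the injected wounds (1.31 to 1.46), with all groups in a single fit (1.26, edgeR adjusted p = 0.0533), and with the replicate letter as a block, where the change was under 2-fold (0.92). Col5a1 had a log2 fold change of -1.81 (edgeR adjusted p = 0.171). Within the upper set, where 4690 of 15132 genes were called, it was -0.22 for Col5a1 (edgeR adjusted p = 0.778). There it was 2.63 for Col5a2 (edgeR adjusted p = 0.000364) and 1.94 for Col3a1 (edgeR adjusted p = 0.00108). The last was a change of sign from -0.37 over both sets. Y chromosome genes were read in the WT wounds of that set and in none of the injected wounds.

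Cilengitide blocks integrins that bind matrix, and no member was called between Col5a1CKO wounds given cilengitide and those given vehicle, where 13.1% of genes were. Col5a1 was at 53.0, 30.3, 28.1 and 107 RPKM with cilengitide and 157, 68.7, 73.2 and 30.5 with vehicle (log2 fold change -0.58, SE 0.59, 95% interval -1.94 to 0.78, edgeR adjusted p = 0.495). The groups overlapped. Per 100 of Col1a1 there were 1.70, 0.753, 0.680 and 3.26 units of Col5a1 (difference -0.69, exact permutation p = 0.286). The 4 wounds stayed below every WT vehicle wound in this ratio.

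Col5a2 was at 262, 454, 446 and 447 RPKM with cilengitide (log2 fold change -0.81, SE 0.44, edgeR adjusted p = 0.208), and the call was made without Col5a1CKO vehicle 4 (-1.07). Relative to Col1a1 it was lower, at 8.40, 11.3, 10.8 and 13.6 units per 100 against 16.5 to 21.7 with vehicle, without overlap, as in 7.32% of genes. That difference of -0.79 had an exact permutation p of 0.0286, the smallest possible, and an adjusted p of 0.39. Relative to Col3a1 the groups overlapped (-0.74, exact permutation p = 0.0857, adjusted p = 0.818). Col5a3 was at 99.9, 137, 108 and 129 RPKM against 108 to 265 with vehicle, and the groups overlapped (log2 fold change -0.70, SE 0.29, edgeR adjusted p = 0.113). By edgeR 0.72% of genes were called relative to Col1a1 and 5.87% relative to Col3a1, and no member was. Col1a1, Col1a2 and Col3a1 had log2 fold changes of -0.07, -0.15 and -0.10, with intervals of -1.22 to 1.09, -1.41 to 1.10 and -1.55 to 1.35.

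Against WT vehicle wounds, where 8.58% of genes were called, Col5a3 was called higher with cilengitide (log2 fold change 1.40, SE 0.25, edgeR adjusted p = 0.0193). The call was lost without WT 3 (1.39) and without cilengitide 2, 3 or 4 (1.33, 1.44 and 1.37). Col11a2 was higher by 0.99 (edgeR adjusted p = 0.0331), just under 2-fold, and reached the call without WT 1 (1.05) or WT 2 (1.0). Col5a1 had -1.72 (edgeR adjusted p = 0.12). This comparison and the one before share the cilengitide wounds.

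The genotype effect was compared between day 19 and day 14 in a single fit. For Col5a1 the effects differed by -0.28 on the log2 scale (SE 0.94, 95% interval -2.24 to 1.68), and no member had an adjusted p below 1 from edgeR. Of 15954 genes 0% were called, with 939 at an unadjusted p under 0.05. The interval is wide enough to hold a several-fold change between the days.

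Other fibrillar collagens and the enzymes that trim procollagens were followed as a list of 13 genes. At day 14, 11 could be tested, 2 rose and 0 fell, where 8.28% of all genes were called (800 higher and 390 lower). Those that rose were Bmp1, which cuts the C-propeptides of fibrillar procollagens (log2 fold change 1.57, SE 0.30, edgeR adjusted p = 0.00727), and Adamts3, which cuts N-propeptides (2.89, SE 0.85, edgeR adjusted p = 0.0418). The median over the list was 1.09. With vehicle, where 30.9% of all genes were called (2706 higher and 2065 lower), 5 of 11 rose and 0 fell, among them Adamts3 (2.64), Adamts14, a relative of Adamts3 (1.20), and Bmp1 (2.01), with edgeR adjusted p of 0.00498, 0.00511 and 0.0146, and the median was 1.62. At day 19, and in the wounds with fibroblasts against either group, 0 were called, with medians of 1.24, -0.63 and 0.77. With cilengitide 0 of 12 were called against Col5a1CKO vehicle wounds (median -0.55) and 1 rose against WT vehicle wounds, Adamts3 (1.28, edgeR adjusted p = 0.0457), where 8.58% of all genes were called. Nothing particular to the list is read from these counts.

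Some cell type markers moved with the genotype. Over all genes 8.28% were called at day 14, 30.9% with vehicle and 0.0198% at day 19. Of 10 fibroblast markers 3 were called higher in Col5a1CKO wounds at day 14 (Pdgfra 2.36, Pdgfrb 2.15 and Thy1 1.14 on the log2 scale). With vehicle 3 were called higher (Pdgfra 2.99, Dcn 2.62 and Thy1 1.87), which is near the share of all genes. The median over the 10 was 0.44 at day 14, with 9 above 0 and 1 below. With vehicle it was 1.72, with all 10 above 0. Their summed CPM was 724 to 10500 in WT and 2830 to 13500 in Col5a1CKO at day 14, and 644 to 2610 against 2680 to 9270 with vehicle. Of 8 keratinocyte markers 4 were called lower with vehicle and 0 at day 14, and their summed CPM was 38900 to 166000 in WT and 48.6 to 65800 in Col5a1CKO at day 14. Of the leukocyte markers 5 of 8 tested were called higher at day 14 and 7 of 9 with vehicle, where 1 was lower. Endothelial markers had 3 of 6 higher in each. None of these lists had a call at day 19. Adipocyte, skeletal muscle and Schwann cell markers had 0 calls in any comparison, and the part of these cells in the levels of the collagen chains was not tested.

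Over the 12 wounds of the second table, the genes whose level was ordered most like that of each member were looked up among 11638 genes. For Col5a1 these were Sema5a, Pptc7 and 6430527G18Rik, with Spearman correlations of 0.895, 0.839 and 0.818, while its correlation was 0.245 with Col5a2 and 0.028 with Col1a1. For Col5a2 they were Tbx15, Adcy6 and Fam13c (1.0, 0.993 and 0.986), and Col5a2 had 0.937 with Col5a3 and 0.923 with Col1a1. Col5a3 was ordered most like Angptl2, Loxl2 and Sec16b (0.993 each), and Col11a1 like Mpzl1, Ctbp1 and Spon1 (0.965, 0.951 and 0.923). The 12 wounds fall into 3 groups, so these values describe the groups as well as the wounds.

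Ordered by median level within a table, few neighbouring groups were apart. Col5a1 went from WT at day 19 (306 RPKM) over Col5a1CKO at day 19 (104), WT at day 14 (101) and Col5a1CKO at day 14 (43.9) to the wounds with fibroblasts (35.4), and each pair of neighbours overlapped. Col5a3 in the wounds with fibroblasts (107) and WT at day 14 (44.9) did not overlap, nor did Col5a3 with cilengitide (119) and in WT with vehicle (46.6). Col11a2 with cilengitide and in WT with vehicle, and Col1a1 in Col5a1CKO wounds at day 19 (11800) and day 14 (4220), were the other neighbours without overlap.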

How the data were processed

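RNA of 35 wound libraries was prepared by the study with a stranded kit and read as 50 bp single ends. The authors deposited raw read counts, per RefSeq transcript with its length for 23 libraries and per gene symbol for 12. Per the labels reads were aligned with Hisat2 to mm9, and the study's methods name SeqMonk for counting on RefSeq exons. Whether that counting covers the second table is not given in the sources used here.

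Rows without a gene name held at most 0.0694% of counts and were left out. The tables were analysed separately. Each comparison was fitted on its own groups in R 4.3.3 by the robust quasi-likelihood method of edgeR 4.0.16, after filterByExpr (minimum count 10) and TMM scaling. Benjamini-Hochberg adjustment was over all genes tested, and genes with at least a 2-fold change and adjusted p below 0.05 were called. For tests relative to Col1a1 or Col3a1, that gene's count replaced the library size. An exact permutation test of log2((count + 0.5)/(reference count + 0.5)) was added after the data were seen. RPKM used TMM-scaled totals and the deposited lengths, for the second table too. Levels at a count of 0 are bounded by 3 counts, which covers counting error only. The genes named were the 8 members, the called genes of the list of processing genes with the smallest adjusted p, up to 3 in each direction, and the 3 genes most like Col5a1, Col5a2, Col5a3 and Col11a1. Members and lists were chosen with earlier results of these data known. DESeq2 1.42.0, other filters, scalings, thresholds, reference sums, library sets and leaving out each library were alternatives. Tests were tested on simulated data. Of 200 genes changed 4-fold in simulated counts, edgeR recovered 42.5 to 63.5% over 5 comparisons, with 1 to 4 false calls. DESeq2 recovered 65 to 85%, with 34 to 90 false calls. A missing edgeR call is therefore weak evidence of no change, and a call by DESeq2 alone was less secure in these simulations. The counts were drawn with the spread that edgeR estimated and without library sets. The numbers of false calls may therefore not carry over to the wounds. The edgeR tests relative to Col1a1 or Col3a1 were not simulated. Unwounded skin was not analysed here.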

Additional observations from a re-analysis of the deposited data

Results flagged for a closer look

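In Col5a1CKO wounds given cilengitide, Col5a2 was at 262 RPKM in replicate 1 and at 446 to 454 in the other 3, and the gap was 0.958 of the whole range against a critical value of 0.829 for 4 wounds. At day 14, Col5a1CKO replicate c had 2.60 units of Col5a1 per 100 of Col1a1, where the other 6 had 0.813 to 1.33. That gap was 0.711 of the range, against 0.568 for 7 wounds. These were the 2 wounds that stood apart in 65 sets of values looked at, and chance marks about 1 in 20 such sets. Without replicate c the Col5a1 difference relative to Col1a1 at day 14 was still called.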

How the results depend on the processing

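Of 648 values recomputed under a setting other than leaving out a library, 583 kept their direction and call, 6 lost the call, 40 gained it and 19 changed sign. Of 880 with 1 library left out, the counts were 814, 10, 23 and 33. Mean levels all moved by less than 1 SD. Col5a3 at day 14 was called in 10 of 11 other settings, and with vehicle in 6 of 6.

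Of the 40 gained calls, 16 from genotype comparisons are given first, as log2 fold changes. Col11a1 at day 14 had 2.44 with DESeq2, with all groups in a single fit and with library set as a term, 2.53 with library size alone and 3.14 in the upper set, and 2.02 to 2.79 with 1 library left out. Col11a1 with vehicle had 2.29 with DESeq2 and 2.28 with all groups, and 1.73 to 2.60 with 1 library left out. Col5a1 at day 14 had -1.42 with DESeq2, -1.43 with all groups, -1.30 with library set as a term and -1.87 in the lower set. Col5a2 had 1.54 with library set as a term and 2.80 in the upper set at day 14, 1.97 with DESeq2 and with all groups with vehicle, and 1.60 to 2.37 there with 1 library left out. Col5a1 relative to Col1a1 at day 19 had -2.93 with counts summed over RefSeq transcripts, and -3.04 to -2.84 with 1 library left out, called without WT b or WT c. The other 24, which also hold genotype comparisons at day 14, were these. Col5a1 relative to Col3a1 at day 14 had -2.35 in the upper set and with a summed reference, which also gave 1.42 for Col11a1 in place of either reference. Col1a1 and Col1a2 at day 14 were each called in 1 of 11 other settings. With fibroblasts against Col5a1CKO the block gave -2.12 for Col5a2 and -1.68 for Col11a1 relative to Col1a1. Against WT, Col11a1, Col1a1 and Col1a2 had 3.36, 2.62 and 2.46 with library set as a term and 3.33, 2.60 and 2.44 in the upper set, Col11a2 1.23 there, Col5a1 -1.90 with DESeq2 and -2.29 with the block, and Col3a1 -1.10 with the block. With cilengitide against WT, DESeq2 called Col11a1 (1.92) and Col5a1 (-1.71), and Col11a2 was called at 1.0 to 1.01 in 4 settings. The 6 lost calls were Col5a3 at day 14 in the upper set (1.83), Col5a1 relative to Col1a1 at day 14 in the lower set (-2.44), Col5a3 with fibroblasts against WT at a threshold of 3-fold (1.40), with all groups (1.26) and with the block (0.92), and Col5a3 with cilengitide against WT at 3-fold (1.40). The cause was not tested, except that the library sets hold fewer wounds.

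Signs changed in the wounds with fibroblasts against Col5a1CKO for Col11a1 with library set as a term (0.14) and in the upper set (0.20, and 0.24 and 0.44 relative to Col1a1 and Col3a1), Col1a1 in the upper set (0.01), Col5a2 relative to Col3a1 in the upper set (0.05), Col5a1 and Col5a3 relative to Col1a1 with a summed reference (0.16 and 0.25) and Col11a2 with the replicate block (-0.08). Against WT they changed for Col5a2 and Col3a1 with library set as a term (2.65 and 1.96) and in the upper set (2.63 and 1.94), for Col1a2 with all groups (-0.03), and for Col1a2 and Col11a1 with the block (-0.48 and -0.20). Others were Col5a3 at day 14 in the upper set relative to Col1a1 (-0.75) and Col3a1 (-0.26), and Col11a2 at day 19 with library size alone (-0.02). With 1 library left out, values on both sides of 0 were -1.92 to 0.64 for Col11a1 at day 19 relative to Col1a1 and -2.10 to 0.81 relative to Col3a1, -0.16 to 0.29 for Col5a3 at day 14 relative to Col1a1, and -0.27 to 0.14 for Col5a3 at day 19 relative to Col3a1. For cilengitide against vehicle they were -0.92 to 0.15 for Col11a1 (-0.66 to 0.10 and -0.36 to 0.23 relative to Col1a1 and Col3a1), -0.35 to 0.18 for Col1a1, -0.43 to 0.20 for Col1a2 and -0.38 to 0.44 for Col3a1. For fibroblasts they were -0.30 to 0.23 for Col11a2 against Col5a1CKO, and -0.10 to 0.44 for Col1a2 and -0.43 to 0.07 for Col5a2 against WT.

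The replicate letters share only a number: deviations of same-letter wounds correlated by -0.46 to 0.57 at day 14, where 3 of 7 WT wounds correlated best with their own letter, and by -0.43 to -0.32 at day 19. With the letter as a block, 757 genes were called higher and 567 lower at day 14 in place of 800 and 390, 0 and 7 at day 19 in place of 3 and 0, and 1415 and 1125 between wounds with fibroblasts and Col5a1CKO in place of 0. No paired analysis was possible for the cilengitide table because its columns carry no shared numbers.

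The number of genes called, over all genes, moved by more than 1.5 times in these settings. DESeq2 called 2095 at day 14, 1397 at day 19, 19 with fibroblasts, 2039 with fibroblasts against WT and 2166 with cilengitide against WT, where edgeR called 1190, 3, 0, 894 and 1331. With all groups in a single fit the counts were 2426 at day 14, 1 at day 19, 1991 with fibroblasts against WT and 483 with cilengitide against WT. With library set as a term they were 1857 at day 14 and 2556 with fibroblasts against WT, which had 4690 in the upper set alone and 3176 with the block. At 3-fold they were 626 at day 14, 1207 in place of 2033 for cilengitide against vehicle, and 597 for cilengitide against WT. Relative to Col1a1, 8781 genes at day 14 became 18 in the lower set and 899 with the block, 4821 at day 19 became 110 with the block and 2000 with a summed reference, and 0 with fibroblasts became 2026 with the block. Relative to Col3a1, 0 at day 14 became 6922 with a summed reference, 556 with the block, 13 in the lower and 10185 in the upper set, 849 at day 19 became 2000 and 74 with a summed reference and the block, 0 with fibroblasts became 7125 with the block, and 914 with cilengitide became 118 with a summed reference. The cause was not tested.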

Other observations

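Col5a1CKO vehicle wound 2 had 0.922 CPM of Xist and 0 CPM over 4 Y chromosome genes, while each of the other libraries had more than 10 CPM of one or the other.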
